A study of Mus musculus with 4 samples.

Results

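The cholesterol and fatty acid synthesis genes were examined in the frontonasal prominence (FNP), the embryonic tissue that forms the nose and snout. They comprise 32 autosomal genes of 33708 genes in the deposited table. They were chosen by name from the pathway, with earlier results of these data known. All 32 were found, each in a single row. They were treated as 17 enzymes of sterol synthesis, 7 genes that regulate or move sterols, and 8 enzymes that make or modify fatty acids.

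Embryos were FVB/NJ mice at stage E10.5, each with 29 somites, and the FNP of each was dissected. There were 2 wild-type embryos, *Smchd1*+/+ (WT, 1 female and 1 male by the labels), and 2 male embryos homozygous for *MommeD43*, *Smchd1*MommeD43/MommeD43 (MD43). *MommeD43* is a point mutation of the endogenous *Smchd1* gene from a chemical mutagenesis screen, so every cell of a homozygous embryo carries it. SMCHD1 acts on chromatin and keeps certain genes silent. Replicate 2 of WT and replicate 2 of MD43 had the same mother, and the other embryos came from separate mothers.

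Cells make cholesterol from acetyl-CoA by way of mevalonate, farnesyl diphosphate, squalene and lanosterol, and make fatty acids from the same acetyl-CoA. Both routes are switched on together by the transcription factors SREBP-1 and SREBP-2, encoded by *Srebf1* and *Srebf2*. These are held in the endoplasmic reticulum with their escort SCAP while sterols are plentiful, because INSIG proteins retain SCAP there, and they are cut and sent to the nucleus when sterols fall. Cholesterol is covalently attached to Hedgehog proteins, and inherited defects of late sterol enzymes such as DHCR7 (Smith-Lemli-Opitz syndrome) affect the face.

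The deposited table gave 1 value per genotype, the mean log2 RPKM (reads scaled to transcript length and to library size) of the 2 libraries of that genotype. No value below therefore has a spread between embryos, no test between the genotypes was possible, and a difference is a description of these 4 libraries. From the values, an MD43 library held 22328791 reads and a WT library 16055882 reads, as the geometric mean of the pair. Each difference is MD43 minus WT on the log2 scale. The error beside it is the standard error that read counting alone would give (counting SE). It is the smallest that the reads allow and leaves out all variation between embryos. Reads are the geometric mean of the 2 libraries of a genotype. The labelled tissue was checked against its markers. All 12 markers of facial mesenchyme had at least 10 reads, and none of 8 *Hox* genes, which the FNP lacks, reached that number.

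The sequences just upstream of 5 members are shown. SREBP proteins bind close to the start of their target genes together with NF-Y, the factor that binds CCAAT. The RefSeq windows (GRCm38.p6) ran from 250 bases before to 50 bases after each annotated start, and 24 of the 32 members had one. *Hmgcs1*, *Msmo1* and *Srebf2* were chosen because their windows held a match to the sterol regulatory element, *Idi1* for its large difference and *Insig1* as a classical sterol-responsive gene. The 250 bases before the start are printed 5′ to 3′ on the strand of the gene. Capitals mark TCACNCCA (the sterol regulatory element, extended to TCACNCCAC where it matched) and CCAAT, which reads ATTGG where it lies on the other strand.
Hmgcs1, chr13:119690101-119690350, plus strand: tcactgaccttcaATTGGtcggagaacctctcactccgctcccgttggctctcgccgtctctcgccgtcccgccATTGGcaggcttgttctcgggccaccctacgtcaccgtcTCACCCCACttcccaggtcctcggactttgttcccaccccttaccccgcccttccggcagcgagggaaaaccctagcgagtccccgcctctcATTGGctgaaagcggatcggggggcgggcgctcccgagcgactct
Msmo1, chr8:64733579-64733828, minus strand: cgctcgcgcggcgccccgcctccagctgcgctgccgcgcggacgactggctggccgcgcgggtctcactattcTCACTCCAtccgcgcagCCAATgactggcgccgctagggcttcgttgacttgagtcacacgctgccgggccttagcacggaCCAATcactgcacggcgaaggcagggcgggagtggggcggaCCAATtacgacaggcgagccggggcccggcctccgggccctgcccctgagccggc
Srebf2, chr15:82147019-82147268, plus strand: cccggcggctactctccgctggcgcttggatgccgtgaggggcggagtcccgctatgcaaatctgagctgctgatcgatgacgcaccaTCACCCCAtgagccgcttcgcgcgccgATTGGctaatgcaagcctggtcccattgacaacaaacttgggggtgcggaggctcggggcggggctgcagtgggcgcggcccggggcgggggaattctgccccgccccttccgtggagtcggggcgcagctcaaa
Idi1, chr13:8885356-8885605, plus strand: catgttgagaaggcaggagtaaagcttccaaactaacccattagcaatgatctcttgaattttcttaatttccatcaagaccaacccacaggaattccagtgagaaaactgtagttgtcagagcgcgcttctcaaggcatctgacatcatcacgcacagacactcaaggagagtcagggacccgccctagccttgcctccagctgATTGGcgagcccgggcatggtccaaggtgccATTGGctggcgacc
Insig1, chr5:28071162-28071411, plus strand: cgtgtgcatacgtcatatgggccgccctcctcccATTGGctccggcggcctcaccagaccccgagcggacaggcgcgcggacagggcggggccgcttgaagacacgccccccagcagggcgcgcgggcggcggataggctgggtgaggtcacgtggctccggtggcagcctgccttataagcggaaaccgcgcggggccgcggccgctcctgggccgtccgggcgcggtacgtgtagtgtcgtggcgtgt

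Counted from the start, the first base of the sterol element was at -137 in *Hmgcs1*, -162 in *Srebf2* and -177 in *Msmo1*. Searched on both strands, TCACNCCA was held by 3 of the 24 members with a window (12.5%) and by 4.27% of the 6375 genes that had at least as many reads as the lowest member. Its longer form TCACNCCAC, which contains it, was found in *Hmgcs1* and no other member. It was held by 1.30% of those 6375 genes. CCAAT was held by 19 of the 24 members (79.2%) and by 43.1% of the 6375 genes. Matches to GGGCGG, the GC box bound by Sp1, were found in 83.3% of the members and 73.4% of these genes, and matches to CACGTG, an E-box, in 20.8% and 12.5%. Of all 32851 windows in the table, 4.36% held TCACNCCA, 1.24% TCACNCCAC, 37.4% CCAAT, 35.7% GGGCGG and 7.15% CACGTG. A match is a stretch of letters and not a measured binding site. The members were chosen from a pathway that SREBP proteins switch on, so these shares do not describe MD43 against WT. A link between the motifs and the difference between the genotypes was not tested.

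Across the pathway, 29 of the 32 members had a higher value in MD43 than in WT, and 3 had a lower value. The median log2 difference was 0.27, and the members ranged from -0.16 for *Insig2* to 0.68 for *Idi1*. For comparison, 8092 genes had at least as many reads as the lowest member (371.5 reads, the geometric mean of both genotypes). Among these genes the median difference was 0.03 and 57.2% were higher in MD43. The middle 95% of them lay between -0.38 and 0.36. A level at least 25% higher in MD43 (a log2 difference of 0.322 or more) was found in 12 of the 32 members, against 3.71% of these genes. No member was lower in MD43 by 0.322 or more, against 3.65%. At least 1.5-fold higher were 2 members, *Idi1* and *Scd1*, against 0.457%. The level was higher by more than the 95% counting interval in 27 members, against 37.1% of the 8092 genes, and lower by more than it in 1 member, against 23.9%. In 4 members the difference was within that interval. *Scap* (0.323) and *Fdft1* (0.326) lay just over the 0.322 line and *Sqle* (0.315) just under it. Members and thresholds were chosen with earlier results of these data known, so these counts and shares describe and do not test.

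**Figure D1:**
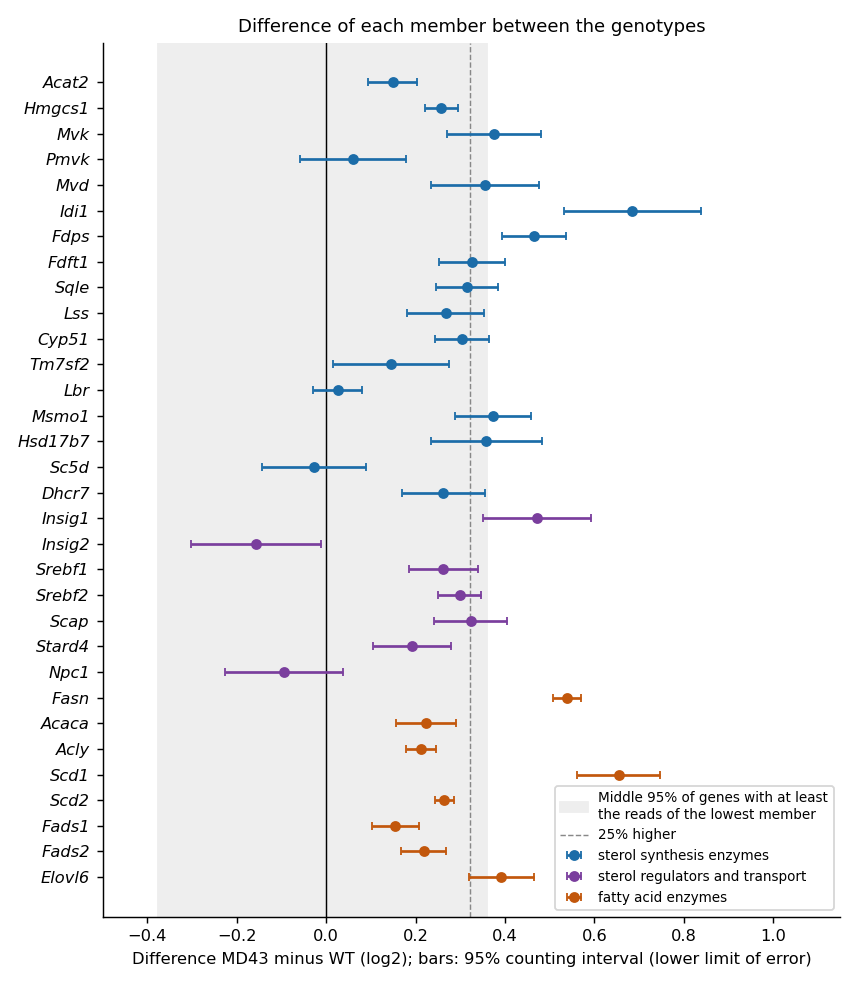
Log2 difference MD43 minus WT of each of the 32 members, in pathway order. Points are coloured by group, bars are the 95% counting interval (the smallest error the reads allow), the grey band is the middle 95% of the 8092 genes with at least as many reads as the lowest member (-0.38 to 0.36), and the dashed line marks 25% higher (0.322). Of the members, 29 lie right of 0, and 8 lie right of the band.

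The first stretch of the sterol pathway runs from acetyl-CoA to farnesyl diphosphate. All 7 of its enzymes had a higher value in MD43, with a median difference of 0.35. *Acat2* (ENSMUSG00000023832, GRCm38 chromosome 17, 12942890 to 12960747), the acetyl-CoA acetyltransferase that makes acetoacetyl-CoA, was at 53.0 RPKM in WT and 58.8 RPKM in MD43, a difference of 0.15 ± 0.03 (counting SE). *Hmgcs1* (ENSMUSG00000093930, chromosome 13, 119690379 to 119708260), the HMG-CoA synthase, was at 62.9 RPKM in WT and 75.2 RPKM in MD43, a difference of 0.26 ± 0.02. These entry enzymes were the most abundant of the sterol enzymes in both genotypes.

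The kinases and the decarboxylase that turn mevalonate into isopentenyl diphosphate differed unequally. *Mvk* (ENSMUSG00000041939, chromosome 5, 114444269 to 114460591), the mevalonate kinase, was at 13.3 RPKM in WT and 17.2 RPKM in MD43, a difference of 0.38 ± 0.05. *Mvd* (ENSMUSG00000006517, chromosome 8, 122433601 to 122443422), the decarboxylase, was at 14.3 and 18.3 RPKM in WT and MD43, a difference of 0.35 ± 0.06. *Pmvk* (chromosome 3, 89454541 to 89469013), the phosphomevalonate kinase that acts between them, was at 17.7 RPKM in WT and 18.4 RPKM in MD43. Its difference of 0.06 ± 0.06 was within counting error.

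*Idi1* (ENSMUSG00000058258, chromosome 13, 8885501 to 8892451), the isomerase that supplies dimethylallyl diphosphate, had the largest difference of the 32 members. It was at 4.42 RPKM in WT and 7.10 RPKM in MD43, from 248 and 556 reads. The difference was 0.68 ± 0.08 (60.8% higher), and 15 of the 8092 genes exceeded it. *Fdps* (ENSMUSG00000059743, chromosome 3, 89093588 to 89101959) makes farnesyl diphosphate, the last intermediate that the sterol and the isoprenoid routes share. It was at 17.6 RPKM in WT and 24.3 RPKM in MD43, a difference of 0.46 ± 0.04.

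The step from farnesyl diphosphate to lanosterol is committed to sterols. Its 3 enzymes differed by similar amounts, from 0.27 to 0.33. *Fdft1* (ENSMUSG00000021273, chromosome 14, 63145150 to 63179578), the squalene synthase, was at 16.7 RPKM in WT and 20.9 RPKM in MD43, a difference of 0.33 ± 0.04. *Sqle* (ENSMUSG00000022351, chromosome 15, 59315077 to 59331192), the squalene epoxidase and a rate-limiting enzyme, was at 15.0 RPKM in WT and 18.7 RPKM in MD43, a difference of 0.32 ± 0.04. *Lss* (chromosome 10, 76531588 to 76557138), the lanosterol synthase, was at 5.07 RPKM in WT and 6.10 RPKM in MD43, a difference of 0.27 ± 0.04.

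From lanosterol to cholesterol, 6 of the 7 enzymes had a higher value in MD43, with a median difference of 0.26. Those that strip the methyl groups of lanosterol were among the higher ones. *Cyp51* (ENSMUSG00000001467, chromosome 5, 4081145 to 4104746), the lanosterol demethylase, was at 24.6 RPKM in WT and 30.4 RPKM in MD43, a difference of 0.30 ± 0.03. *Msmo1* (ENSMUSG00000031604, chromosome 8, 64718139 to 64733792), the methylsterol monooxygenase, was at 8.86 RPKM in WT and 11.5 RPKM in MD43, a difference of 0.37 ± 0.04. *Hsd17b7* (chromosome 1, 169949535 to 169969241), the sterol ketoreductase of the same demethylation, was at 4.95 RPKM in WT and 6.35 RPKM in MD43, a difference of 0.36 ± 0.06.

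The sterol C14 reductase step can be carried out by either of a pair of proteins, and neither gene differed much. *Lbr* (chromosome 1, 181815335 to 181843046), the lamin B receptor, which is a nuclear envelope protein as well as a reductase, was at 29.6 RPKM in WT and 30.1 RPKM in MD43. Its difference of 0.03 ± 0.03 was within counting error. *Tm7sf2* (chromosome 19, 6062821 to 6068373), the other reductase, was at 5.57 RPKM in WT and 6.16 RPKM in MD43, a difference of 0.15 ± 0.07. *Lbr* was 5.31-fold more abundant per length than *Tm7sf2* in WT and 4.89-fold in MD43.

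The last members of the route also split. *Sc5d* (chromosome 9, 42251595 to 42264256), the lathosterol desaturase, was at 6.61 RPKM in WT and 6.48 RPKM in MD43. Its difference of -0.03 ± 0.06 was within counting error. *Dhcr7* (ENSMUSG00000058454, chromosome 7, 143823145 to 143848410), the reductase of 7-dehydrocholesterol, was at 8.01 RPKM in WT and 9.61 RPKM in MD43, a difference of 0.26 ± 0.05.

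**Figure D2:**
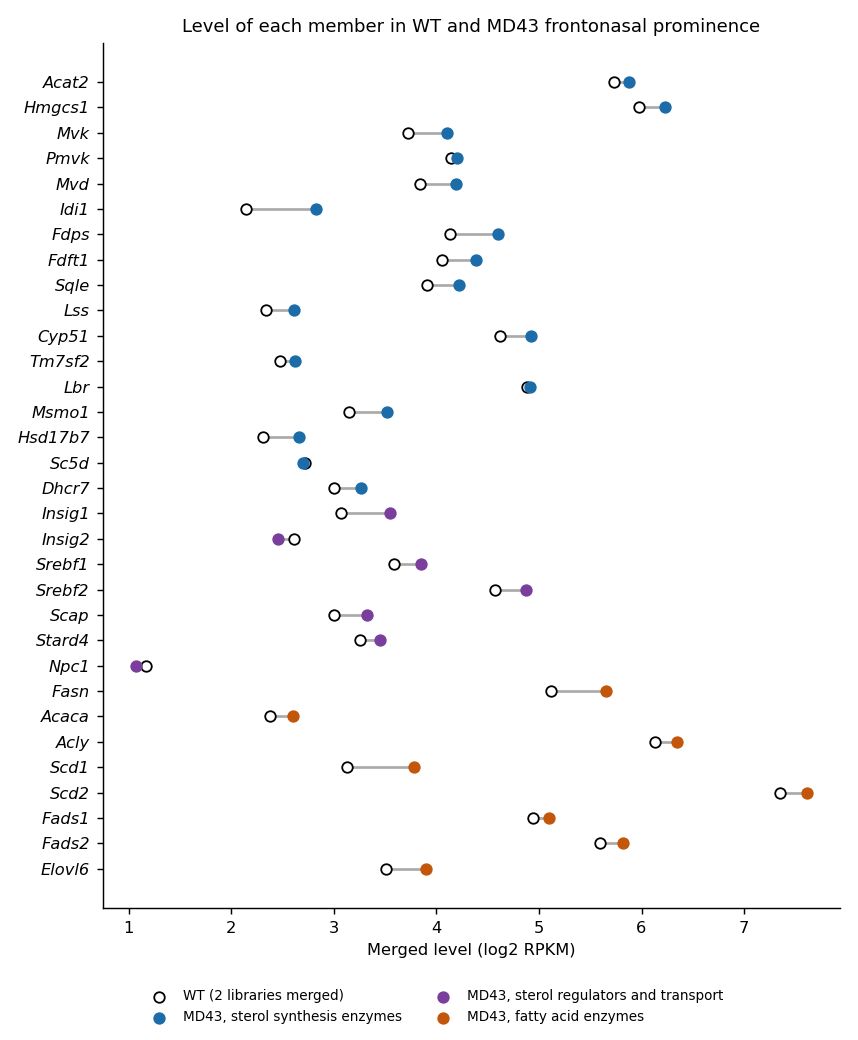
Level of each member in log2 RPKM (merged over 2 libraries per genotype), with WT as open and MD43 as filled circles, in pathway order. The MD43 circle lies to the right for 29 of the 32 members. It lies to the left for *Sc5d*, *Insig2* and *Npc1*, at 6.61, 6.11 and 2.25 RPKM in WT.

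Of the 7 genes that regulate or move sterols, 5 had a higher value in MD43 and 2 a lower one, with a median difference of 0.26. The genes of SREBP-2, SREBP-1 and their escort SCAP were all higher. *Srebf2* (ENSMUSG00000022463, chromosome 15, 82147181 to 82205379), which encodes the main activator of the sterol genes, was at 23.8 RPKM in WT and 29.3 RPKM in MD43, a difference of 0.30 ± 0.02. *Srebf1* (ENSMUSG00000020538, chromosome 11, 60199089 to 60222581), whose product favours the fatty acid genes, was at 12.04 RPKM in WT and 14.4 RPKM in MD43, a difference of 0.26 ± 0.04. The ratio of *Srebf2* to *Srebf1* was close in the genotypes, at 1.98 in WT and 2.03 in MD43. *Scap* (ENSMUSG00000032485, chromosome 9, 110333288 to 110384950), the escort, was at 8.003 RPKM in WT and 10.01 RPKM in MD43, a difference of 0.32 ± 0.04.

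The INSIG genes went in opposite directions. *Insig1* (ENSMUSG00000045294, chromosome 5, 28071363 to 28078662), itself an SREBP target that closes the feedback loop, was at 8.42 RPKM in WT and 11.7 RPKM in MD43, a difference of 0.47 ± 0.06. *Insig2* (ENSMUSG00000003721, chromosome 1, 121304353 to 121332589), which is not induced in this way in most tissues, was at 6.11 RPKM in WT and 5.48 RPKM in MD43, a difference of -0.16 ± 0.07. The gap between their differences was 0.63 ± 0.10 (counting SE). *Insig1* was 1.38-fold more abundant per length than *Insig2* in WT and 2.13-fold in MD43. The difference of *Insig2* lay within the middle 95% of the 8092 genes, of which 7017 had a higher signed difference.

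*Stard4* (chromosome 18, 33199355 to 33213862), a cytosolic carrier of cholesterol, was at 9.55 RPKM in WT and 10.9 RPKM in MD43, a difference of 0.19 ± 0.04. *Npc1* (chromosome 18, 12189692 to 12236400), which exports cholesterol from lysosomes, had the lowest level of all members, at 2.25 RPKM in WT and 2.10 RPKM in MD43. Its difference of -0.09 ± 0.07 was within counting error.

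All 8 fatty acid enzymes had a higher value in MD43, with a median difference of 0.24, a lowest difference of 0.15 and a highest of 0.65. *Fasn* (ENSMUSG00000025153, chromosome 11, 120805846 to 120824547), the fatty acid synthase, was at 34.7 RPKM in WT and 50.4 RPKM in MD43, from 6098 and 12317 reads. Its difference was 0.54 ± 0.02 (45.2% higher). The enzymes that feed it differed less. *Acly* (ENSMUSG00000020917, chromosome 11, 100476353 to 100528000), which makes cytosolic acetyl-CoA from citrate, was at 70.3 RPKM in WT and 81.4 RPKM in MD43, a difference of 0.21 ± 0.02. *Acaca* (chromosome 11, 84129672 to 84401651), the acetyl-CoA carboxylase, was at 5.20 RPKM in WT and 6.07 RPKM in MD43, a difference of 0.22 ± 0.03.

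The stearoyl-CoA desaturases introduce the double bond of oleic acid. *Scd2* (ENSMUSG00000025203, chromosome 19, 44293674 to 44306864), the form of embryo and brain, was the most abundant member, at 163 RPKM in WT and 196 RPKM in MD43, a difference of 0.26 ± 0.01. *Scd1* (ENSMUSG00000037071, chromosome 19, 44394455 to 44407879), the form that predominates in adult liver and fat, was at 8.74 RPKM in WT and 13.8 RPKM in MD43, a difference of 0.65 ± 0.05. *Scd2* exceeded *Scd1* per length 18.6-fold in WT and 14.2-fold in MD43, so most of the desaturase transcript was *Scd2* in both genotypes.

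The elongase *Elovl6* (ENSMUSG00000041220, chromosome 3, 129532355 to 129638495), which extends palmitate to stearate, was at 11.4 RPKM in WT and 14.9 RPKM in MD43, a difference of 0.39 ± 0.04. The desaturases of polyunsaturated fatty acids lie beside each other on chromosome 19. *Fads1* (10182888 to 10196877) was at 30.8 RPKM in WT and 34.3 RPKM in MD43, a difference of 0.15 ± 0.03. *Fads2* (10062765 to 10101746) was at 48.4 RPKM in WT and 56.3 RPKM in MD43, a difference of 0.22 ± 0.03. The members as a whole lay on 14 chromosomes.

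Other genes of lipid metabolism, taken from lists of their pathways, differed less. Over the 14931 genes with at least 10 reads, which include many of low level, 50.6% were higher in MD43, 8.83% were at least 25% higher and 13.6% were lower by 0.322 or more on the log2 scale. Of 11 measured genes that process SREBP or break down its regulators, 7 were higher and 4 lower, none by 0.322 or more, and their median difference was 0.03. *Vcp*, which extracts proteins from membranes for degradation and was the most abundant of the list, was at 0.18 ± 0.02, and the ubiquitin ligase *Rnf139* at -0.17 ± 0.05. The branch from farnesyl diphosphate to prenyl groups, dolichol and ubiquinone had a median of 0.03 over 12 genes, again with none past 0.322. *Pdss1* of ubiquinone synthesis was at 0.29 ± 0.09 and *Icmt*, which methylates prenylated proteins, at 0.29 ± 0.05.

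The supply of acetyl-CoA and NADPH had a median of -0.06 over 10 measured genes, of which 3 were higher and 7 lower, none by 0.322 or more. The malic enzymes differed in direction, with *Me2* at 0.22 ± 0.04 and *Me1* at -0.22 ± 0.10. Other elongation and desaturation enzymes had a median of 0.06 over 12 genes, with 8 higher and 4 lower. *Tecr*, the reductase that ends each elongation cycle and the most abundant of them, was at 0.18 ± 0.03. Of these genes 1 was at least 25% higher and 1 was lower by 0.322 or more. The largest difference was that of *Fads6*, a gene of the fatty acid desaturase family with a low level, at 0.443 RPKM in WT and 0.654 RPKM in MD43, a difference of 0.56 ± 0.18. *Elovl2*, an elongase of polyunsaturated fatty acids, was at 0.29 ± 0.05, and *Hacd1*, a dehydratase of the cycle, at -0.33 ± 0.13. A list of further sterol enzymes and SREBP targets had a median of 0.23 over 12 genes and ran from -0.43 to 1.40. In it 7 genes were higher and 5 lower. At least 25% higher were 4 of them, and 1 was lower by 0.322 or more. The plot of differences by list shows the 3 groups of members beside these lists.

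**Figure D3:**
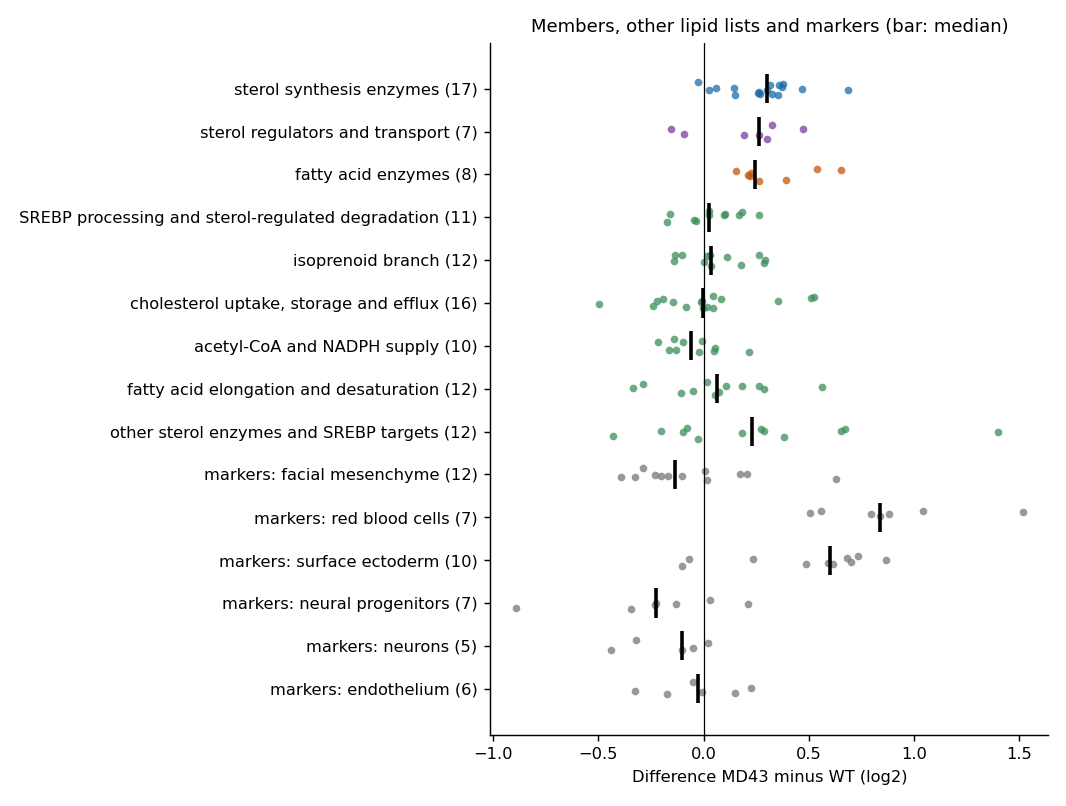
Log2 difference MD43 minus WT of the members (coloured), of other lipid lists (green) and of cell type markers (grey). Points are genes with at least 10 reads, black bars are list medians, and the number of genes is in parentheses. The medians of the 3 member groups lie between 0.24 and 0.30, those of red blood cell and surface ectoderm markers at 0.84 and 0.60.

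Markers of other cell types also differed between the genotypes. All 7 measured red blood cell markers were at least 25% higher in MD43, with a median difference of 0.84, and their summed level went from 3059.9 RPKM in WT to 5818.5 RPKM in MD43. Of 10 surface ectoderm markers, 8 were higher and 7 at least 25% higher, with a median of 0.60, and their summed level went from 132 to 199 RPKM. *Cdh1* (E-cadherin) was at 0.73 ± 0.05. Markers of facial mesenchyme had a median of -0.14 (5 higher, 7 lower), neural progenitors -0.23 (2 higher, 5 lower), neurons -0.10 (1 higher, 4 lower) and endothelium -0.03 (2 higher, 4 lower). The part of these markers in the higher lipid values was not tested, and in such bulk tissue fewer cells of a type and less RNA per cell cannot be told apart. Sex, mother and genotype could not be separated either, since each value merges 2 embryos.

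The difference also moved with GC content. Over the 8092 genes Spearman's rho between GC content and the difference was 0.33. All genes share the same 4 libraries, so this is a description. The median difference of these genes was -0.04 at a GC content of 40 to 45% and 0.10 at 55 to 60%. Over the 32 members rho was 0.05. Their median was 0.31 at 40 to 45% (8 members), 0.27 at 45 to 50% (10 members), 0.22 at 50 to 55% (7 members) and 0.32 at 55 to 60% (7 members). *Idi1*, with the largest difference, had the lowest GC content, 41.9%. After a fit on GC content and transcript length was subtracted, 30 members were higher and 2 lower, against 68.2% higher among the 8092 genes. After this subtraction 14 members were at least 25% higher, against 4.13%. That fit was made over genes with at least 10 reads. With the same fit made over the 8092 genes, 29 members were higher and 3 lower, and 8 members were at least 25% higher. The share of the 8092 genes was not computed for this second fit.

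**Figure D4:**
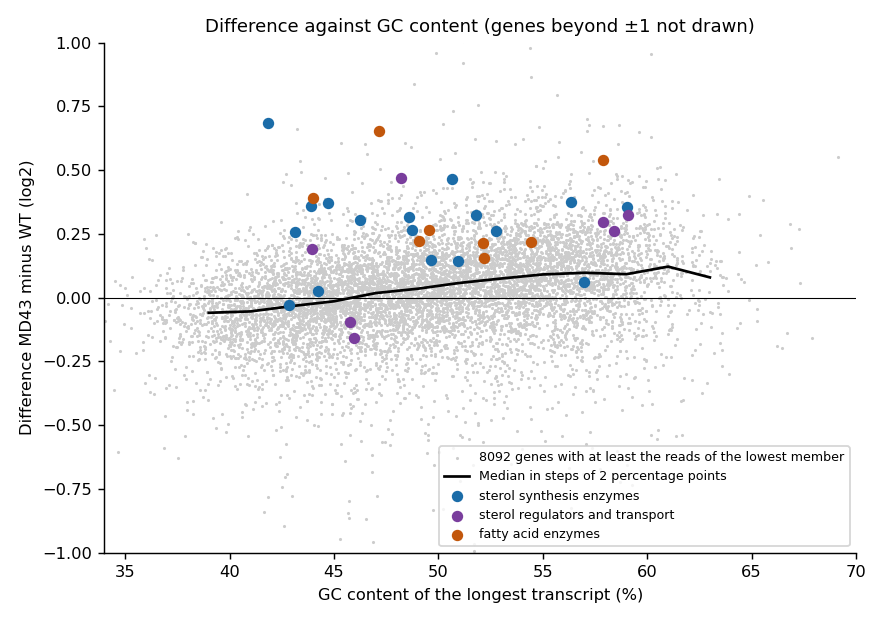
Log2 difference MD43 minus WT against GC content of the longest transcript. Grey points are the 8092 genes with at least as many reads as the lowest member, the black line is their median in steps of GC content, and coloured points are the members. Most members lie above the line at every GC content, from 41.9% (*Idi1*, 0.68) to 59.1% (*Scap*, 0.32).

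Some members share sequence with other genes, and how the authors' counting treated such reads is not given in the sources used here. Of the 75-base stretches (the read length) of the longest transcript, 47.4% in *Acaca* also occur in the gene Gm5182, 40.7% in *Acat2* in *Acat3*, and 29.1% in *Idi1* in other genes, mostly Gm13502. *Acat3*, listed beside *Acat2*, went the other way, with a difference of -0.18 ± 0.03. *Fdft1* shared 25.4%, mostly with *Ctsb* on the opposite strand, which was at 0.17 ± 0.03. *Hmgcs1* shared 12.2% with the antisense gene Gm48342, which was at 0.44 ± 0.04 on 869 and 1640 reads in WT and MD43. *Fdps* shared 9.24%, mostly with Gm43738 on the same strand, which was at 0.42 ± 0.04. *Scap*, just over the 25% line, shared 10.2% with 5830462I19Rik on the opposite strand, which was at 0.36 ± 0.10. *Lbr* shared 10.7% with *Dnah14* on the opposite strand, which was at -0.22 ± 0.06. The libraries were stranded, but whether strand was used in the counting is not stated, so reads of opposite genes may be shared. Of the 24 members with under 5% of such stretches, 21 were higher in MD43 and the median difference was 0.27. The *Scd1* and *Scd2* transcripts shared little, 3.24% and 1.80%.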

How the data were processed

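Stranded poly(A) libraries of the FNP were made from 100 ng of total RNA and sequenced as 75-bp single-end reads. The authors trimmed reads with TrimGalore 0.4.4, mapped them with hisat2 2.0.5 to GRCm38.p6 and quantified them in SeqMonk. The deposited values are log2 RPKM, which the authors scaled for transcript length and depth, and each genotype has 1 column. The table also holds the authors' fold change, mean and FDR, which were not used. Groups and replicate numbers came from the sample labels.

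Rows were joined to GENCODE M21 (GRCm38) on symbol and position (33101 matched). Reads were recovered from the level shared by genes without reads, with 0.9 reads for an empty library. Of read products under 1000, 99.9% were whole, or whole times 0.9, to within 0.002. The recovery was also run on simulated data built with the same formula and the same 0.9 reads. That run checks the arithmetic and cannot check how the authors' values were made. The counting SE uses the geometric mean of reads, and intervals are 1.96 counting SE wide on each side. Comparison genes had at least 10 reads, or at least the 371.5 reads of the lowest member, as the geometric mean over both genotypes. The GC and length fit was quadratic and made over genes with at least 10 reads (1.82% of variance). All members were named, and from each other list at most the 3 genes with the largest differences and the most abundant one, some of which are not reported here. Members, lists, motifs and thresholds were chosen with earlier results of these data known. Alternatives were pseudocounts of 0.1 and 1 RPKM, centring, filters, another fold and summed RPKM. Calculations used Python 3.11.15, numpy 2.4.6 and pandas 2.3.3.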

Additional observations from a re-analysis of the deposited data

How the results depend on the processing

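Under the pseudocounts, the centrings and the GC and length fits, 192 values of single members were recomputed. Of these, 177 moved by less than the 95% counting interval, 15 moved by more, and none that exceeded its counting error changed sign. Between 28 and 30 of the 32 members were higher in each of these settings. Centring on genes with at least 1000 reads moved the median difference to 0.264 for the sterol enzymes, 0.204 for the fatty acid enzymes and 0.226 for all members. The GC and length correction moved them to 0.336, 0.269 and 0.293, and the same fit over genes with at least the reads of the lowest member, added after the data were seen, moved that of all members to 0.235. The log2 ratio of summed RPKM was 0.246 for the sterol enzymes and 0.282 for the fatty acid enzymes. The median of the regulators stayed within its counting interval in all settings. With a fold of 1.5 as the threshold, 2 members passed in place of 12, by the stricter threshold itself. The count was 8 when centred on genes with at least 1000 reads or with the fit over well-read genes, and 7 among the 19 members whose exons overlap no other annotated gene, by the fewer members counted. No paired analysis was possible because both libraries of a genotype are merged into 1 value. Likewise no library could be left out, and whether 1 library decides a difference is unknown.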

Other observations

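Genes that store, take up or export cholesterol, which lie outside the synthesis pathway, showed no common direction. Of 16 measured, 7 were higher and 9 lower in MD43, with a median log2 difference of -0.01. At least 25% higher were 3 of them, and 1 was lower by 0.322 or more. The largest difference was that of *Gramd1c*, a sterol transfer protein of low level, at 0.531 RPKM in WT and 0.763 RPKM in MD43, a difference of 0.52 ± 0.19. *Soat1*, which esterifies cholesterol for storage, was the lowest of them, at 5.72 RPKM in WT and 4.05 RPKM in MD43, a difference of -0.50 ± 0.05 (counting SE). *Npc2*, the soluble lysosomal partner of NPC1 and the most abundant gene of the list, was at -0.24 ± 0.03. *Abcg1*, a sterol exporter, was higher, at 1.08 RPKM in WT and 1.54 RPKM in MD43, a difference of 0.51 ± 0.11. These values have no replicate error, and no explanation was tested.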
